A study of Mus musculus with 73 samples.

Results

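Extraembryonic ectoderm (ExE) of mouse embryos injected with Cas9 and guide RNAs against Rnf2 was compared with wild-type ExE of the same cross at embryonic day 6.5. The members were the 5 libraries labelled Rnf2 and ExE, chosen by their labels, of 72 libraries in all, and each library was the ExE of 1 embryo. They were set against 7 wild-type ExE libraries. All 12 embryos had a BDF1 mother, which is a hybrid of C57BL/6 and DBA, and a CAST father, a wild-derived strain, and were made by injection of sperm into the oocyte. The Rnf2 zygotes also received Cas9 mRNA and several guide RNAs at the pronuclear stage, and blastocysts were transferred to pseudopregnant CD-1 females. Edited embryos of this kind can each carry a different mixture of alleles, which the library labels do not give. ExE was cut from the epiblast and freed of visceral endoderm by enzyme and pipette, and a library was made from the small number of cells left. ExE of embryos injected with guides against Eed (10 libraries), against Ehmt1 and Ehmt2 together (named G9a-Glp, 8 libraries) and against Dnmt1 (3 libraries) had the same parents and handling, and epiblast gave 6 Rnf2 and 7 wild-type libraries. Reads were counted over polymorphisms that tell CAST from BDF1, so each gene has a total count and a share from each parent.

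Rnf2, also called Ring1b, is the main catalytic subunit of Polycomb repressive complex 1 (PRC1) in early embryos, and it places ubiquitin on histone H2A at silenced promoters. PRC2, which contains Eed, methylates histone H3 on lysine 27, and both complexes occupy CpG-rich promoters of developmental regulators such as the Hox genes. A variant form of PRC1 that contains the E-box binding proteins Mga and Max is known for silencing germline genes outside the germline. ExE is the trophoblast tissue beside the epiblast, which keeps trophoblast stem cells and later gives rise to placenta. In this lineage the paternal allele of several genes around the noncoding RNA Kcnq1ot1 is silenced with the help of Polycomb complexes.

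The Rnf2 ExE libraries held 9815006, 10263280, 1847681, 8195827 and 6998279 counted reads (embryos 2, 4, 5, 6 and 7), against 2685835 to 3053690 in wild type. All but embryo 5 were deeper than every wild-type library, so genotype and depth cannot be told apart, and no sequencing batch is given in the labels. Levels are therefore given as CPM, the reads of a gene scaled to the total of counted reads in its library, which has no correction for gene length. Changes were called by the two-sided quasi-likelihood test of edgeR on TMM-scaled counts, and an adjusted p under 0.05 over all genes tested is called a change. Separate embryos served as replicates within each group. The maternal share of all autosomal reads was 56.7 to 57.3% in Rnf2 and 56.9 to 57.7% in wild type. Trophoblast markers were present in both groups. Elf5, a trophoblast stem cell factor, was at 265 ± 80.2 CPM (SD, n = 7) in wild type and 342 ± 217 CPM (SD, n = 5) in Rnf2. Fgf5, a defining gene of the epiblast, averaged 382 CPM in wild-type epiblast, 0.551 CPM in wild-type ExE and 1.36 CPM in Rnf2 ExE.

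Rnf2 mRNA itself did not separate the groups. The gene (chr1:151469406-151500922, mm10) was at 51.7, 54.9, 49.1, 65.9, 23.7, 51.7 and 21.4 CPM in wild-type embryos 1, 2, 3, 4, 6, 7 and 8, and at 29.6, 22.4, 39.5, 62.7 and 21.9 CPM in the Rnf2 embryos. The ranges overlapped, and the log2 change was -0.42 ± 0.30 (SE, adjusted p = 0.323). Against Dnmt1 and G9a-Glp ExE Rnf2 was lower (log2 -0.70, adjusted p = 0.0471). The group is therefore called by its label, the libraries labelled Rnf2. Ring1, the paralogue that can stand in for Rnf2, was too low for the test, with means of 0.626 ± 0.590 CPM in wild type and 0.955 ± 0.639 CPM in Rnf2 (SD). Its highest value, 2.07 CPM, was in Rnf2 embryo 6.

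Of 9203 autosomal genes tested, 2011 (21.9%) changed, 1132 (12.3%) to a higher level and 879 (9.55%) to a lower one in Rnf2. The median log2 change over all genes tested was -0.02. In 1154 genes (12.5%) the ranges of the 5 Rnf2 and 7 wild-type libraries did not overlap. Without Rnf2 embryo 6 the number of genes lower fell to 560, and without Rnf2 embryo 2 to 582, while the total stayed between 1426 and 2166 when any 1 library was left out. Because the wild-type embryos were not injected with guides, the Rnf2 libraries were also compared with the 11 Dnmt1 and G9a-Glp ExE libraries, a comparison chosen after seeing the data. There 1347 of 9537 genes (14.1%) changed, 654 higher (6.86%) and 693 lower (7.27%).

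Hox genes, which set positional identity along the body axis later in development, were close to silent in wild-type ExE and present in every Rnf2 library. Their summed level was 0.358 to 1.79 CPM in wild type and 52.2, 24.5, 36.3, 57.2 and 57.3 CPM in Rnf2 embryos 2, 4, 5, 6 and 7, with no overlap. Of 35 Hox genes in the table, 28 had no read in any wild-type library. Only 2 passed the filter on low counts, and both rose, against a background of 12.3% of tested genes. A gene could pass that filter through the Rnf2 libraries alone, so the level of every member was also read directly. In 9 of the 35, every Rnf2 library was above every wild-type library, which held for 5.35% of the 19962 autosomal genes with a read. In 1.98% of those autosomal genes every Rnf2 library was below every wild-type library. In the remaining Hox genes the ranges overlapped or were both at 0, and 5 had no read in either group.

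Hoxb7 (chr11:96286646-96290163) had no read in any wild-type library, which allows up to 0.982 to 1.12 CPM in each library. It stood at 17.0, 10.1, 17.9, 13.2 and 17.4 CPM in the Rnf2 embryos (15.1 ± 3.36, SD, n = 5), at least 102-fold higher than 3 reads over the wild-type group would give (adjusted p = 7.58e-06). Hoxb7 was also without reads in G9a-Glp and Dnmt1 ExE, and it was at 3.98 CPM in Eed ExE. The level in Rnf2 exceeded that in Eed by 2.01 ± 0.37 on the log2 scale (SE, adjusted p = 0.00174). Hoxd13, a gene of the distal limb and genital tubercle in later embryos, had reads in 1 wild-type library (0.715 CPM). It was at 9.78, 4.00, 5.95, 9.76 and 10.3 CPM in the Rnf2 embryos, a log2 change of 5.96 ± 0.63 (SE, adjusted p = 1.47e-05). Hoxd13 in Rnf2 also exceeded its mean of 3.00 CPM in Eed (log2 difference 1.55 ± 0.48 SE, adjusted p = 0.0350). The other 7 genes with separated ranges were not tested. Among them Hoxb13 averaged 0.432 CPM in wild type and 4.16 CPM in Rnf2, Hoxd9 averaged 0 and 3.75 CPM, Hoxa7 0.104 and 2.65 CPM, and Hoxd11 0 and 2.31 CPM. Hoxa3, Hoxd8 and Hoxc10 averaged 2.0, 0.830 and 0.550 CPM in Rnf2. The last 2 lie below the 0.982 to 1.12 CPM that a wild-type library without reads allows.

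Developmental transcription factors outside the Hox clusters showed the same direction. Of 175 in the table, 112 had no read in wild type and 13 were tested, of which 7 rose and 0 fell (edgeR; 9 higher and 0 lower at an unadjusted p under 0.05, and 7 higher and 0 lower with DESeq2). Over all tested genes 12.3% were higher. These genes too could pass the filter on low counts through the Rnf2 libraries alone, so the calls by themselves cannot show a direction of the list. In 25 of the 175, every Rnf2 library was above every wild-type library, again beside a background of 5.35%. The summed level was 217 to 355 CPM in Rnf2 and 86.9 to 217 CPM in wild type, where embryo 6 was highest.

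Barx1 (chr13:48663036-48666507), a homeobox gene of the stomach mesenchyme and jaw, was at 0 to 1.67 CPM in wild type (median 0.328). It was at 23.6, 12.3, 9.74, 25.7 and 26.7 CPM in the Rnf2 embryos, 36.2-fold higher on average (log2 change 5.08 ± 0.53 SE, adjusted p = 1.42e-05). The lowest Rnf2 embryo was thus well above the highest wild-type embryo. Eed ExE was higher still, at 44.4 CPM, and the difference passed the test (log2 -1.03 ± 0.23 SE, adjusted p = 0.00667), whereas G9a-Glp and Dnmt1 ExE were at 0.546 and 0.912 CPM. Six2, a factor of kidney progenitors, rose from 1.21 to 21.5 CPM on average (adjusted p = 1.50e-05). Nkx2-9, a homeobox gene of the ventral neural tube, averaged 0.347 and 13.1 CPM, but its counts equal those of the overlapping gene Gm26973, so the pair cannot be told apart, and it did not pass against Dnmt1 and G9a-Glp (log2 1.40, adjusted p = 0.119). Wt1, a factor of kidney and gonad, rose from 0.647 to 4.65 CPM, and Irx4, Tbx20 and Vax2, factors of ventricle, heart and ventral eye, rose from 1.01 to 7.48, from 3.52 to 9.40 and from 2.20 to 10.5 CPM. A further 6 members with separated ranges that were not tested were En2 (0.737 and 5.99 CPM), Runx3 (0.291 and 4.49), Gsc (0.0953 and 3.72), Pax9 (0.0476 and 3.52), Tbx1 (0 and 3.31) and Osr2 (0 and 2.53).

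The promoter of Barx1 is shown because it is the most CpG-rich of the Hox and developmental factors that rose and have an entry. The 250 bases before its start (GRCm38.p6, RefSeq, chr13:48662786-48663035, plus strand) hold 40 CpG, marked in capitals.
Barx1: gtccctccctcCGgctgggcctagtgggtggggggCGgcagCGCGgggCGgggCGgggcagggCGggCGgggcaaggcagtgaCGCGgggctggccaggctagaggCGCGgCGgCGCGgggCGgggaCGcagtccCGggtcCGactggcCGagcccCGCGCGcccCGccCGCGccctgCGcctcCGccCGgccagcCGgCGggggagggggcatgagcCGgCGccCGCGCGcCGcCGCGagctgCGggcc
The 6 such genes with an entry in the RefSeq promoter table held 13 to 40 CpG in this window, with a median of 24. The median was 16 over the 6973 tested genes with an entry and 6 over all 27025 genes of the table. Hoxb7, Wt1 and Vax2 have no entry.

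**Figure D1:**
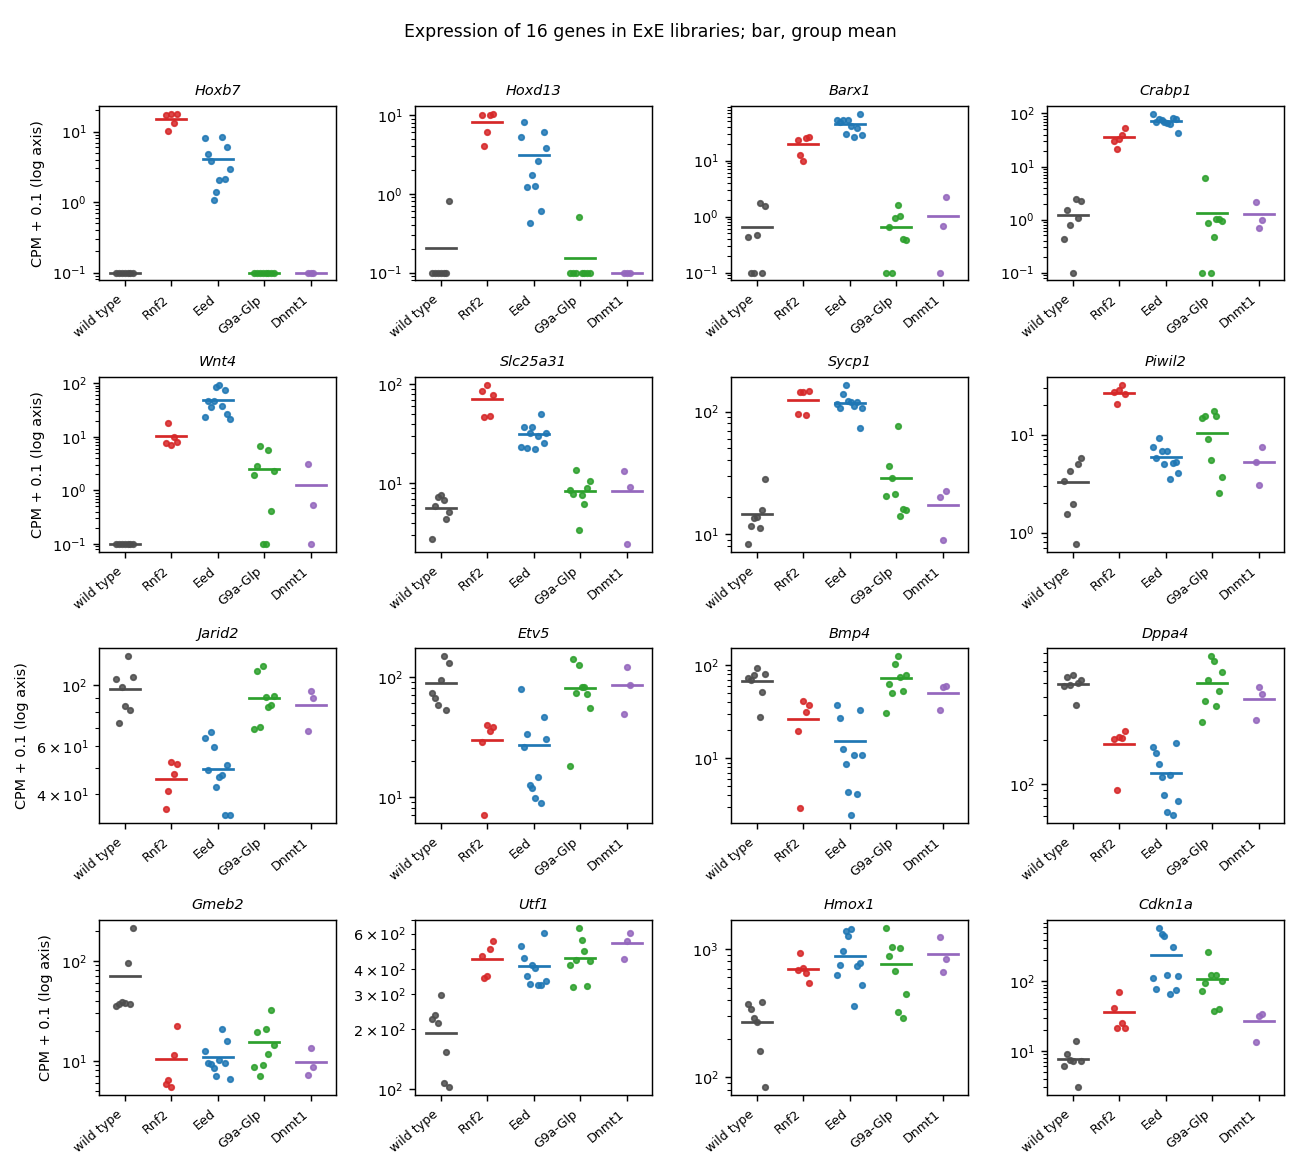
Level of 16 genes in each ExE library, in CPM plus 0.1 on a log axis, for wild type (7 libraries), Rnf2 (5), Eed (10), G9a-Glp (8) and Dnmt1 (3). Points are embryos and bars are means. Hoxb7 is at 0 in all wild-type libraries and at 10.1 to 17.9 CPM in Rnf2, while Cdkn1a reaches 240 CPM on average in Eed and 107 CPM in G9a-Glp.

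Several genes of signalling and growth were among the largest increases. Wnt4, a ligand needed in kidney and gonad, had no read in wild type and stood at 7.44, 18.2, 7.04, 9.88 and 7.72 CPM in the Rnf2 embryos, at least 68.0-fold higher than 3 reads over the group (adjusted p = 4.99e-05). Eed ExE was higher, at 48.8 CPM (log2 difference -2.14 ± 0.36 SE, adjusted p = 0.000952). Crabp1, which binds retinoic acid in the cytoplasm, was at 0 to 2.33 CPM in wild type and at 29.6, 21.5, 33.6, 39.8 and 53.3 CPM in Rnf2, a 31.4-fold difference of the means (log2 change 4.88 ± 0.40 SE, adjusted p = 1.82e-06). In Eed it was at 72.2 CPM and in G9a-Glp and Dnmt1 at 1.23 and 1.16 CPM. Ccnd1, the D-type cyclin of the G1 phase, averaged 0.888 CPM in wild type and 17.4 CPM in Rnf2 (adjusted p = 2.41e-05), with 15.8 CPM in Eed. In epiblast Ccnd1 was already at 65.0 CPM in wild type and at 77.3 CPM in Rnf2. Tesc, a calcium-binding protein, averaged 0.198 and 9.11 CPM, the transmembrane protein gene Eva1a 0.249 and 7.54 CPM, and the noncoding RNA Foxl2os 0.409 and 11 CPM. Mesp2, a factor of segmentation in mesoderm, averaged 0.397 and 7.56 CPM. All 4 passed the test (adjusted p from 1.29e-05 to 0.000145), and in each the 5 Rnf2 libraries lay above the 7 wild-type libraries. Eva1a did not pass against Dnmt1 and G9a-Glp (log2 1.04, adjusted p = 0.171).

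Of the 48 germline and meiosis genes counted, 22 were tested, 14 rose and 0 fell (edgeR; 17 higher and 0 lower at an unadjusted p under 0.05, and 14 higher and 0 lower with DESeq2), with a median log2 change of 1.97 against -0.02 over all genes. The share of all tested genes higher was 12.3%, and here too a gene could pass the filter on low counts through the Rnf2 libraries alone. In 18 of the 48 every Rnf2 library was above every wild-type library, beside 5.35% of all autosomal genes with a read. Their summed level was 422 to 492 CPM in wild type and 1035 to 1575 CPM in Rnf2. Promoter windows of 4 of them are printed because they hold the E-box CACGTG, shown in capitals, which reads the same on both strands. Each is the 250 bases before a start in GRCm38.p6 from RefSeq, for Slc25a31 chr3:40708621-40708870 on the plus strand, and on the minus strand for Sycp1 chr3:102936101-102936350, Ddx4 chr13:112652311-112652560 and Fkbp6 chr5:135350045-135350294.
Slc25a31: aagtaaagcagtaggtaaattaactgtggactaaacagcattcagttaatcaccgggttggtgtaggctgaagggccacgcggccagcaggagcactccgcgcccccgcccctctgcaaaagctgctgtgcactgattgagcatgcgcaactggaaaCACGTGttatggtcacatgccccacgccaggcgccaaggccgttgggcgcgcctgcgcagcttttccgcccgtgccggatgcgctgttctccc
Sycp1: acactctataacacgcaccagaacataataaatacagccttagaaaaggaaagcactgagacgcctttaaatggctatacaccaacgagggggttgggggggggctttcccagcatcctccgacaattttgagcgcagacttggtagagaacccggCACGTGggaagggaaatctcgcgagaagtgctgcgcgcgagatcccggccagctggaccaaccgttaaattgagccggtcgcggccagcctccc
Ddx4: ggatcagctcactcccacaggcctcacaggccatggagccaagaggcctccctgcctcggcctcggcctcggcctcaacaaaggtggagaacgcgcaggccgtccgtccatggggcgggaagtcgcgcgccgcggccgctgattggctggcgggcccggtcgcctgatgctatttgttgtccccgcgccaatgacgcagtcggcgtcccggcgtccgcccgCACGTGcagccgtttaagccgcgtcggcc
Fkbp6: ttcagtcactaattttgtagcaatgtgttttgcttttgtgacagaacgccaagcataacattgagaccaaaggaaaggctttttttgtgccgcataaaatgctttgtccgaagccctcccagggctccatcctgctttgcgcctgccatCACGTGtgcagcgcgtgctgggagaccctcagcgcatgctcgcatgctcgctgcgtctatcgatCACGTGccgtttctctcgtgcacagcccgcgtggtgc
The motif begins 93, 94 and 29 bases before the start in Slc25a31, Sycp1 and Ddx4, and 101 and 37 bases before it in Fkbp6. It was found in 5 of the 13 germline genes that rose and have an entry (38.5%; Tdrd1 is the fifth), in 10.4% of tested genes and in 6.86% of all genes of the table. The E2F-type motif TCCCGC, searched on both strands, was in 38.5% of the same 13 genes and in 35.7% of tested genes. A match describes the letters of the window and is no evidence of binding. Piwil2 has no entry.

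Slc25a31, a mitochondrial ADP/ATP carrier of the testis, was at 2.62 to 7.45 CPM in wild type (median 5.74). It was at 85.6, 46.6, 98.0, 48.2 and 78.6 CPM in the Rnf2 embryos, 12.8-fold higher (log2 change 3.62 ± 0.26 SE, adjusted p = 9.66e-07). Its lowest Rnf2 value was thus several times the highest wild-type value. Eed ExE was at 31.1 CPM, below Rnf2 (log2 difference 1.27 ± 0.22 SE, adjusted p = 0.00112), and G9a-Glp and Dnmt1 were both at 8.21 CPM. Ddx4, the germ cell RNA helicase Vasa, was at 0.715 to 10.8 CPM in wild type and at 76.8, 28.9, 109, 62.1 and 81.7 CPM in Rnf2 (log2 change 3.43 ± 0.36 SE, adjusted p = 1.42e-05). It exceeded Eed, at 16.4 CPM, by 2.24 ± 0.23 on the log2 scale (adjusted p = 1.02e-05). Sycp1, the central filament of the synaptonemal complex, was at 8.19 to 27.9 CPM in wild type and at 95.5, 144, 144, 93.3 and 148 CPM in Rnf2 (8.65-fold, adjusted p = 3.59e-06). Sycp1 was at 118 CPM in Eed, and the interval of that difference includes 0 (log2 0.18 ± 0.17 SE, adjusted p = 0.515).

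Other members of the list act in piRNA loading and in meiotic recombination. Fkbp6, a cochaperone of piRNA loading, was at 33.4 to 94.2 CPM in wild type and at 269, 211, 359, 285 and 385 CPM in Rnf2 (4.92-fold, adjusted p = 7.58e-06). Its level was 64.9 CPM in Eed, far below Rnf2 (log2 difference 2.32 ± 0.17 SE, adjusted p = 7.75e-08), and 131 and 183 CPM in G9a-Glp and Dnmt1. Piwil2, a Piwi protein, rose from 3.15 ± 1.89 to 26.7 ± 4.10 CPM (SD, adjusted p = 2.42e-05) and was at 5.80 CPM in Eed (log2 difference 2.31 ± 0.18 SE, adjusted p = 1.76e-07). Tdrkh and Tdrd1, Tudor proteins of the same pathway, rose from 3.09 to 25.3 and from 3.89 to 12.6 CPM. Syce1, another synaptonemal complex protein, rose from 17.9 to 75.9 CPM and Dmc1, the meiotic recombinase, from 4.15 to 20.3 CPM. Tex101, a germ cell surface protein, rose from 5.10 to 39.2 CPM. Tuba3a rose from 10.3 to 47.7 CPM, but it was at 53.4 and 83.1 CPM in G9a-Glp and Dnmt1, and reads may be split uncertainly between it and its near copy Tuba3b. Against Dnmt1 and G9a-Glp together, 12 of 22 germline genes were higher in Rnf2 and 4 were lower, beside 6.86 and 7.27% of all genes. Rpl10l, Sohlh2 and Asz1 were at 968, 423 and 231 CPM in G9a-Glp and at 33.8, 36.8 and 11.8 CPM in Rnf2, where none of the 3 passed the test against wild type.

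**Figure D2:**
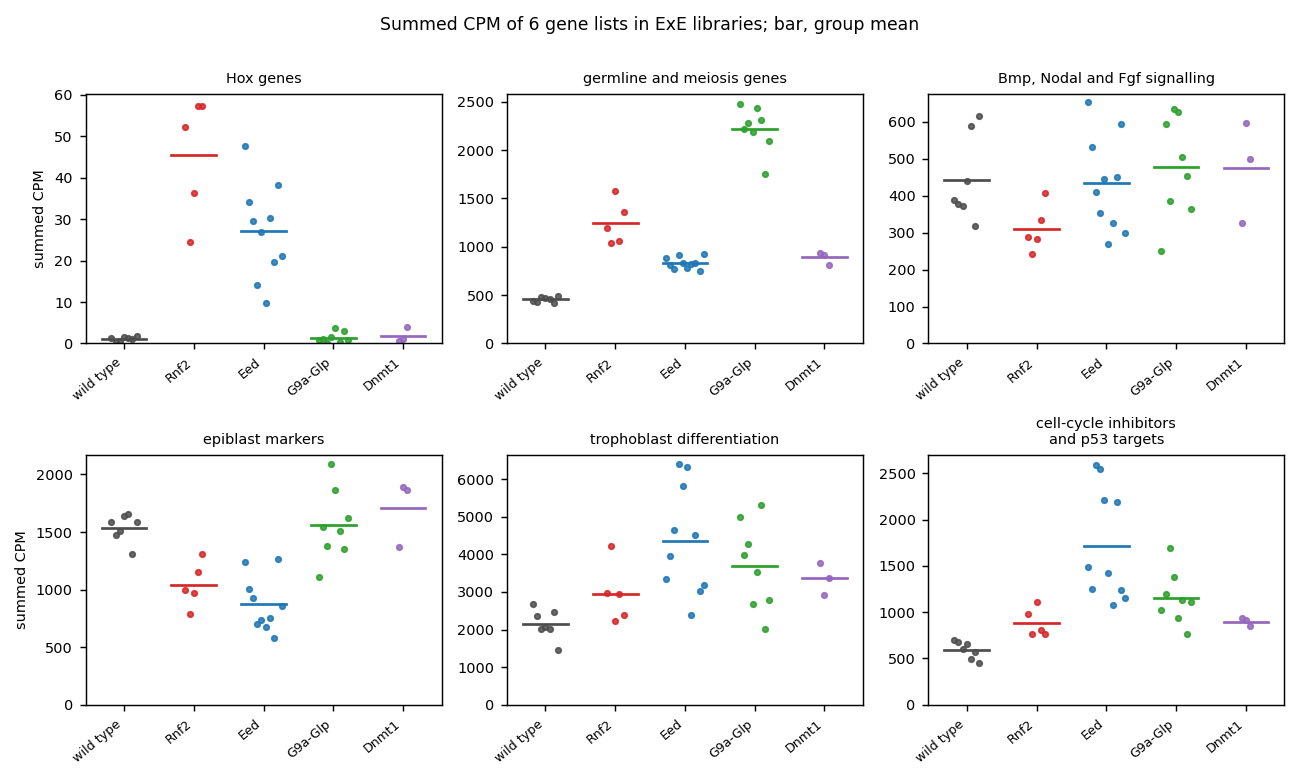
Summed level, in CPM on a linear axis from 0, of 6 gene lists in each ExE library of the 5 groups, with points for embryos and bars for means. Hox genes reach 24.5 to 57.3 CPM in Rnf2 and 9.77 to 47.7 CPM in Eed and stay at or under 3.87 CPM in the other groups, and germline genes are highest in G9a-Glp.

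Among the genes that fell most, several were signalling genes or noncoding RNAs of wild-type ExE. Il17rd, a feedback inhibitor of Fgf signalling also called Sef, was at 8.51 to 38.2 CPM in wild type and at 4.48, 1.46, 2.71, 3.17 and 7.29 CPM in Rnf2 (4.98-fold lower, log2 change -2.36 ± 0.46 SE, adjusted p = 0.00214). It was at 8.57 CPM in Eed and at 15.1 and 17.4 CPM in G9a-Glp and Dnmt1. Kdr, the Vegf receptor of vascular precursors, fell from 7.27 to 1.51 CPM (adjusted p = 0.00218). Enpp6, a choline phosphodiesterase, fell from 8.78 to 1.44 CPM, Cldn9, a tight junction protein, from 6.30 to 1.18 CPM, and Synpo2l, an actin-associated protein, from 6.80 to 1.14 CPM. Synpo2l did not pass against Dnmt1 and G9a-Glp (log2 -1.97, adjusted p = 0.116). The noncoding genes Gm39853, Mirt1, Gm41958 and Gm30984 fell from 12.8 to 0.688, from 5.85 to 0.987, from 5.04 to 0.900 and from 6.17 to 1.26 CPM. In Gm39853, Mirt1 and Kdr, wild-type embryo 8 was far above the other 6, at 45.0, 13.6 and 14.3 CPM. Gmeb2, a DNA-binding protein of glucocorticoid-responsive elements, was at 35.4 to 214 CPM in wild type (median 37.6) and at 5.71, 6.33, 5.41, 11.2 and 22.4 CPM in Rnf2 (log2 change -2.86 ± 0.57 SE, adjusted p = 0.00240). It was as low in Eed, G9a-Glp and Dnmt1, at 10.9, 15.4 and 9.73 CPM, and Rnf2 did not pass the test against the last 2 groups (log2 -0.41, adjusted p = 0.549).

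Of 18 tested PRC1 subunits 2 rose and 0 fell (edgeR; 2 higher and 2 lower at an unadjusted p under 0.05, and 2 higher and 1 lower with DESeq2), beside 12.3% of all genes higher. Cbx8, a chromodomain subunit, was at 3.57 to 19.7 CPM in wild type and at 21.2, 41.2, 23.3, 36.5 and 37.9 CPM in Rnf2 (3.11-fold, adjusted p = 0.00132). Bmi1, the Ring finger partner also called Pcgf4, rose from 8.46 to 19.2 CPM (adjusted p = 0.00503), and it was at 15.9 and 17.1 CPM in G9a-Glp and Dnmt1, a difference that did not pass (log2 0.30, adjusted p = 0.394). Of 9 tested PRC2 subunits 0 rose (1 at an unadjusted p under 0.05, and 0 with DESeq2) and 3 fell, beside 9.55% of all genes lower. Jarid2, which helps to recruit PRC2, was at 72.8 to 127 CPM in wild type and at 35.3, 41.1, 52.5, 47.2 and 51.4 CPM in Rnf2, 2.12-fold lower without overlap (log2 change -1.15 ± 0.17 SE, adjusted p = 0.000228). Jarid2 was at 49.4 CPM in Eed and at 89.9 and 84.4 CPM in G9a-Glp and Dnmt1. Mtf2, a Polycomb-like subunit, fell from 124 to 82.0 CPM (adjusted p = 0.00702). Suz12, a core subunit, fell from 55.4 to 41.5 CPM (adjusted p = 0.0310), but without Rnf2 embryo 2, 4 or 7 or wild-type embryo 3, 4 or 7 it did not pass (log2 changes of -0.47, -0.40, -0.43, -0.47, -0.43 and -0.45), nor did it against Dnmt1 and G9a-Glp (-0.43, adjusted p = 0.0921). Ezh2, the methyltransferase, was at 116 and 117 CPM, and Eed at 201 and 147 CPM, neither past the test (adjusted p = 0.848 and 0.0822).

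Genes of trophoblast stem cells kept their presence in Rnf2 ExE, and a few were lower. Of 17 tested, 1 rose and 4 fell (7 with DESeq2), beside 9.55% of all genes lower. Bmp4, the signal from ExE to the epiblast, was at 27.7 to 93.8 CPM in wild type (median 73.7) and at 19.6, 2.83, 41.7, 31.2 and 37.2 CPM in Rnf2 (log2 change -1.46 ± 0.44 SE, adjusted p = 0.0276). The groups overlapped, and embryo 4 was lowest. Fgfr2, the receptor of the Fgf4 signal, fell from 108 to 69.9 CPM, Eomes, a T-box factor of trophoblast, from 115 to 68.5 CPM, and Ddah1 from 638 to 459 CPM (adjusted p from 0.0217 to 0.0368). The cadherin gene Cdh3 rose from 8.57 to 15.9 CPM (adjusted p = 0.0247). These calls rest on few libraries. Without Rnf2 embryo 4 or 5 the number lower was 1 or 2, and without embryo 2 all 4 calls and that of Cdh3 were lost. The log2 changes were then -1.36 for Bmp4, -0.62 for Fgfr2, -0.45 for Ddah1 and 0.87 for Cdh3. Without embryo 6 Bmp4 did not pass either (-1.52), without embryo 4 Fgfr2, Ddah1 and Cdh3 did not (-0.61, -0.45 and 0.76), and without embryo 5 Fgfr2 did not (-0.63). Fgfr2, Ddah1 and Cdh3 did not pass against Dnmt1 and G9a-Glp ExE (log2 -0.10, -0.16 and 0.15, adjusted p = 0.752, 0.523 and 0.790). Cdx2, another stem cell factor, was at 5.21 and 8.65 CPM, and Esrrb at 35.1 and 19.5 CPM, neither past the test (adjusted p = 0.112 and 0.0755).

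In the list of Bmp, Nodal and Fgf signalling 18 genes were tested, 1 rose, 4 fell and 13 did not pass, beside 9.55% of all genes lower. Etv5, an Ets factor induced by Fgf, was at 52.3 to 147 CPM in wild type and at 28.5, 6.92, 39.5, 34.9 and 38.2 CPM in Rnf2, with no overlap (log2 change -1.67 ± 0.37 SE, adjusted p = 0.00494). It was at 27.1 CPM in Eed and at 80.6 and 84.5 CPM in G9a-Glp and Dnmt1, and Rnf2 was also lower than the last 2 (log2 -1.42, adjusted p = 0.0170). Spred1 and Spred2, inhibitors of the pathway, fell from 52.3 to 19.9 and from 16.4 to 5.32 CPM, and Dusp6, the phosphatase of Erk, from 67.8 to 26.9 CPM (adjusted p from 0.00549 to 0.0386). Spred1 did not pass against Dnmt1 and G9a-Glp (log2 -0.59, adjusted p = 0.292). Dusp6 did not pass without Rnf2 embryo 2, 5 or 6 or without wild-type embryo 4 or 8 (log2 -1.28, -1.44, -1.58, -1.37 and -1.20). The number of genes of the list called lower was 2 without Rnf2 embryo 2, 5 or 6 or wild-type embryo 8. Id3, a target of Bmp signalling, rose from 6.03 to 28.9 CPM (log2 change 2.24 ± 0.29 SE, adjusted p = 0.000100), and did not pass against Dnmt1 and G9a-Glp (log2 1.31, adjusted p = 0.0702). Of 11 tested genes of the Wnt pathway, Wnt4 and the secreted inhibitor Sfrp1 (0.763 and 9.01 CPM) rose and the receptors Fzd7 (15.3 and 4.07 CPM) and Fzd1 (10.3 and 4.82 CPM) fell, beside 12.3% of all genes higher and 9.55% lower. Neither receptor passed against Dnmt1 and G9a-Glp (log2 -1.22 and -0.88, adjusted p = 0.0609 and 0.216). Fzd1 did not pass without Rnf2 embryo 2 or 6 (log2 -1.21 and -1.22).

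Of 13 tested genes of trophoblast differentiation 7 rose, 2 fell and 4 did not pass, beside 12.3% of all genes higher. Krt7, a keratin of trophoblast, was at 1.07 to 15.0 CPM in wild type and at 50.1, 50.8, 35.7, 34.0 and 22.0 CPM in Rnf2 (5.20-fold, adjusted p = 0.00253). The connexin gene Gjb5 rose from 285 to 599 CPM, Krt19 from 108 to 240 CPM, Tfeb, a bHLH factor needed for the placental labyrinth, from 7.31 to 18.8 CPM, and Dlx3 from 4.83 to 15.1 CPM. Against Dnmt1 and G9a-Glp ExE, 1 of 14 tested members passed and was lower in Rnf2, beside 7.27% of all genes lower in that comparison. In G9a-Glp and Dnmt1 the values were 528 and 454 CPM for Gjb5 and 227 and 217 CPM for Krt19. Krt7 was at 20.4 and 17.1 CPM there. Without Rnf2 embryo 4 the number higher than wild type was 4. Slc2a3, the glucose transporter Glut3, fell from 275 ± 53.3 to 81.5 ± 19.1 CPM (SD, log2 change -1.79 ± 0.17 SE, adjusted p = 6.66e-06). This did not pass against Dnmt1 and G9a-Glp (log2 -0.65, adjusted p = 0.0635). Plet1, a surface protein of ExE, fell from 506 to 281 CPM (adjusted p = 0.0268), and the number of the list called lower was 1 without Rnf2 embryo 2, 4, 5 or 6 or wild-type embryo 4.

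Of 16 tested cell-cycle inhibitors and p53 targets 7 rose and 0 fell (edgeR; 11 higher and 0 lower at an unadjusted p under 0.05, and 8 higher and 0 lower with DESeq2). The shares over all tested genes were 12.3% higher and 9.55% lower. Cdkn1a, the inhibitor p21, was at 2.96 to 14.0 CPM in wild type and at 41.6, 21.4, 69.3, 25.1 and 21.4 CPM in Rnf2 (4.70-fold, adjusted p = 0.000474). Its level was 240, 107 and 26.5 CPM in Eed, G9a-Glp and Dnmt1. Btg2, Sesn2 and Ccng1, further p53 targets, rose from 20.6 to 46.7, from 3.03 to 8.62 and from 71.1 to 130 CPM. Against Dnmt1 and G9a-Glp 2 of 17 tested members passed, both lower in Rnf2, beside 7.27% of all genes lower in that comparison. Without Rnf2 embryo 5, which was the shallowest library and the highest for Cdkn1a, the number higher than wild type was 4, and Ccng1 did not pass (log2 0.57). Of 10 tested stress genes 3 rose, beside the same 12.3% of all genes. Hmox1, heme oxygenase, was at 271 and 702 CPM, with 767 and 909 CPM in G9a-Glp and Dnmt1, while Hspb1 (60.4 and 175 CPM) and Gadd45b (29.8 and 91.8 CPM) also exceeded those 2 groups (log2 1.08 and 1.31, adjusted p = 0.00254 and 0.00153). Guide injection and genotype cannot be told apart for the genes that are shared with the other injected groups. The libraries held 1829541 to 3637331 counted reads in G9a-Glp and 1710457 to 2324585 in Dnmt1, against 2685835 to 3053690 in wild type. The cause of the shared changes was not tested.

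Of 15 genes listed as epiblast markers 5 were tested in ExE, 3 fell and 1 rose, beside 9.55% of all tested genes lower and 12.3% higher. Of the 10 untested, all at low levels in ExE, 8 had a higher mean in Rnf2, where most libraries were deeper. The share of all untested genes with a higher mean was not computed. Nanog and Tdgf1, at 2.30 and 2.57 CPM in wild-type ExE, had a lower mean in Rnf2. Dppa4, a chromatin protein of pluripotent cells, was at 349 to 568 CPM in wild-type ExE against 6.63 CPM in wild-type epiblast, and at 205, 90.1, 211, 209 and 232 CPM in Rnf2 ExE (log2 change -1.44 ± 0.20 SE, adjusted p = 0.000179). Every Rnf2 library was below every wild-type library. In Eed it was lower still at 118 CPM, and it was at 503 and 389 CPM in G9a-Glp and Dnmt1. Dnmt3b, a de novo DNA methyltransferase, fell from 752 to 339 CPM, and L1td1, an RNA-binding protein, from 79.6 to 44.8 CPM (adjusted p = 0.000241 and 0.00106). Utf1, a chromatin protein, rose from 190 to 449 CPM, but was at 412, 455 and 536 CPM in Eed, G9a-Glp and Dnmt1. Fgf5, Nanog and Tdgf1, at 382, 93.4 and 511 CPM in wild-type epiblast, averaged 1.36, 1.03 and 1.46 CPM in Rnf2 ExE.

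Markers of other tissues gave the following values, beside 12.3% of all tested genes higher and 9.55% lower. Of the 23 visceral endoderm genes counted, 4 were tested and 1, Amn, rose (11.2 and 24.6 CPM), and the summed level was 459 to 843 CPM in wild type and 611 to 968 CPM in Rnf2, most of it from Cldn6 (652 and 708 CPM). Cer1 and Fgb were at 0 in both groups and Ttr averaged 0.290 and 0.110 CPM. The endoderm factors Gata4 and Hhex were untested and averaged 0.245 and 5.07 CPM, and 0.153 and 2.41 CPM. Of 8 parietal endoderm genes 6 were tested and Pth1r and Lamb1 fell (89.2 to 42.8 and 40.9 to 20.7 CPM), Lamb1 not without Rnf2 embryo 6 (log2 -0.91). Amn, Pth1r, Lamb1 and T did not pass against Dnmt1 and G9a-Glp (log2 0.59, -0.70, 0.92 and -0.58, adjusted p from 0.102 to 0.458). Of 17 genes of primitive streak and mesoderm 5 were tested, Mesp2 rose and Kdr and T fell, and Mesp1 and Mixl1 averaged 0.577 and 2.24 CPM in Rnf2. The mesoderm sum was 31.9 to 96.8 CPM in wild type and 28.1 to 68.3 CPM in Rnf2. Of 16 genes of maternal decidua and blood none was tested, and the sum was 1.72 to 4.67 CPM in wild type and 7.04 to 11.4 CPM in Rnf2, led by Des (4.60 CPM) and Cd52 (2.95 CPM). Hbb-bt, Prl8a2, Dcn and Col3a1 were at 0 in both groups. In tissue pieces, fewer cells of a type and less RNA per cell cannot be told apart.

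The effect of Rnf2 disruption differed between ExE and epiblast in 687 of 10947 genes tested (6.28%), 222 (2.03%) with a more positive and 465 (4.25%) with a more negative log2 change in ExE. Some embryos gave both tissues, which the fit did not use. Dppa4 and Dppa2, a pair of adjacent genes of pluripotent cells, were the clearest. Dppa4 went from 6.63 to 204 CPM in epiblast and from 491 to 189 CPM in ExE (difference of the log2 changes -6.38, adjusted p = 1.77e-09). Dppa2 went from 1.25 to 82.2 CPM in epiblast and from 66.5 to 42.0 CPM in ExE (-6.77, adjusted p = 5.33e-07). The Rnf2 level of Dppa4 was thus close in the 2 tissues. In both genes the Rnf2 levels of the tissues were nearer to each other than the wild-type levels were. Pglyrp1, a peptidoglycan recognition protein, Phf11d and 2210019I11Rik had no read in wild-type epiblast and 1.48, 3.27 and 1.37 CPM in Rnf2 epiblast, and 13.8, 8.25 and 5.32 CPM in wild-type ExE. In the other direction, Mixl1, a homeobox gene of the primitive streak, went from 102 to 2.77 CPM in epiblast and from 0.593 to 2.24 CPM in ExE. Gsc, a gene of the organizer, went from 11.3 to 7.30 CPM in epiblast and from 0.0953 to 3.72 CPM in ExE, and Hhex from 8.47 to 2.35 and from 0.153 to 2.41 CPM.

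Rnf2 and Eed ExE differed in 1488 of 10339 genes (14.4%), 503 higher (4.87%) and 985 lower (9.53%) in Rnf2. With library totals in place of TMM the split was 244 higher and 1227 lower, and the median log2 difference of all genes moved from -0.05 to -0.17. Eed mRNA was at 7.93 CPM in Eed ExE and at 147 CPM in Rnf2 ExE (log2 difference 4.26, adjusted p = 4.30e-09). Besides Fkbp6 and Piwil2, Prss45, a serine protease, and Crxos, a homeobox gene of the early embryo, were higher in Rnf2 (6.44 against 0.366 CPM and 14.3 against 2.73 CPM). Ccrl2, Upk3a, Rtp4, Serpinb9e and Plat were higher in Eed, at 6.08, 5.49, 15.0, 21.6 and 8.74 CPM, and were at 0.0195, 0.128, 0.286, 0.565 and 0.187 CPM in Rnf2 (adjusted p from 7.13e-05 to 0.0185). Of the 26 germline genes tested here 9 were higher in Rnf2 and 2 lower, and of 25 developmental factors 2 were higher and 7 lower. Without Rnf2 embryo 6 the count of differences over all genes was 940.

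Parental shares changed in far fewer genes. Maternal and paternal reads were tested with a term for each library, where 3 or more libraries of both groups had 10 or more reads of the gene. Of 9002 genes 82 changed (0.911%), 40 toward the mother (0.444%) and 42 toward the father (0.467%). In 60 of the 82 the ranges of the groups did not overlap, against 1.32% of all tested genes. The ranges come from the libraries that gave the calls, so they are no separate support. The count of changed genes was 51 without Rnf2 embryo 2 and 50 without embryo 4. Of 79 listed imprinted genes 39 were tested and 12 changed, beside a background of 0.911%, and in all 12 the parents were nearer to equal in Rnf2. The silent allele of these 12 gave 0.0285 to 5.07% of reads in wild type on average. A change could therefore hardly go the other way, and the shared direction is no separate result. Of the 12 genes, 7 are maternally and 5 paternally expressed.

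Of the 12 imprinted genes with a changed share, 5 lay in the Kcnq1ot1 domain of chr7, where the paternal allele is the silent one in trophoblast. Ascl2, a bHLH factor of the placenta (chr7:142966822-143008033), was 97.6 to 100% maternal in wild type (mean 99.6 ± 0.878, SD, n = 7). It was 70.4, 67.0, 64.2, 62.9 and 63.7% maternal in the Rnf2 embryos (mean 65.6 ± 3.09, SD, n = 5), a change of the maternal-to-paternal ratio of -7.84 ± 0.29 on the log2 scale (SE, adjusted p = 8.02e-13). The reads behind it were 42 to 661 per wild-type library and 246 to 5495 per Rnf2 library. Paternal reads of Ascl2 rose from 0.192 ± 0.261 to 97.7 ± 48.8 CPM and maternal reads went from 96.8 ± 68.5 to 191 ± 104 CPM (SD). The gene as a whole rose from 97.0 to 289 CPM (log2 change 1.56 ± 0.44 SE, adjusted p = 0.0183).

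Phlda2 (chr7:143501545-143503145), an inhibitor of placental growth, was 93.0 to 99.0% maternal in wild type and 77.0, 77.0, 76.5, 62.5 and 74.0% in Rnf2 (log2 -3.98 ± 0.36 SE, adjusted p = 2.82e-06). Its paternal reads went from 34.7 to 514 CPM. Tssc4 (chr7:143068092-143071093) was 89.1 to 100% maternal in wild type and 71.3, 68.3, 76.1, 63.7 and 58.9% in Rnf2 (log2 -3.50 ± 0.40 SE, adjusted p = 6.95e-05). Cd81, a tetraspanin (chr7:143052750-143067930), went from a mean of 97.6 ± 2.82% to 77.2 ± 10.4% (SD, adjusted p = 0.000618), and R74862, which overlaps the start of Cd81, from 96.2 to 75.1%. Slc22a18, a transporter gene (chr7:143473726-143499334), went from 97.5 to 72.4% (adjusted p = 0.00174), with as few as 3 reads in a wild-type library. In each of these genes every Rnf2 embryo was below every wild-type embryo, as the plot of the domain shows.

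**Figure D3:**
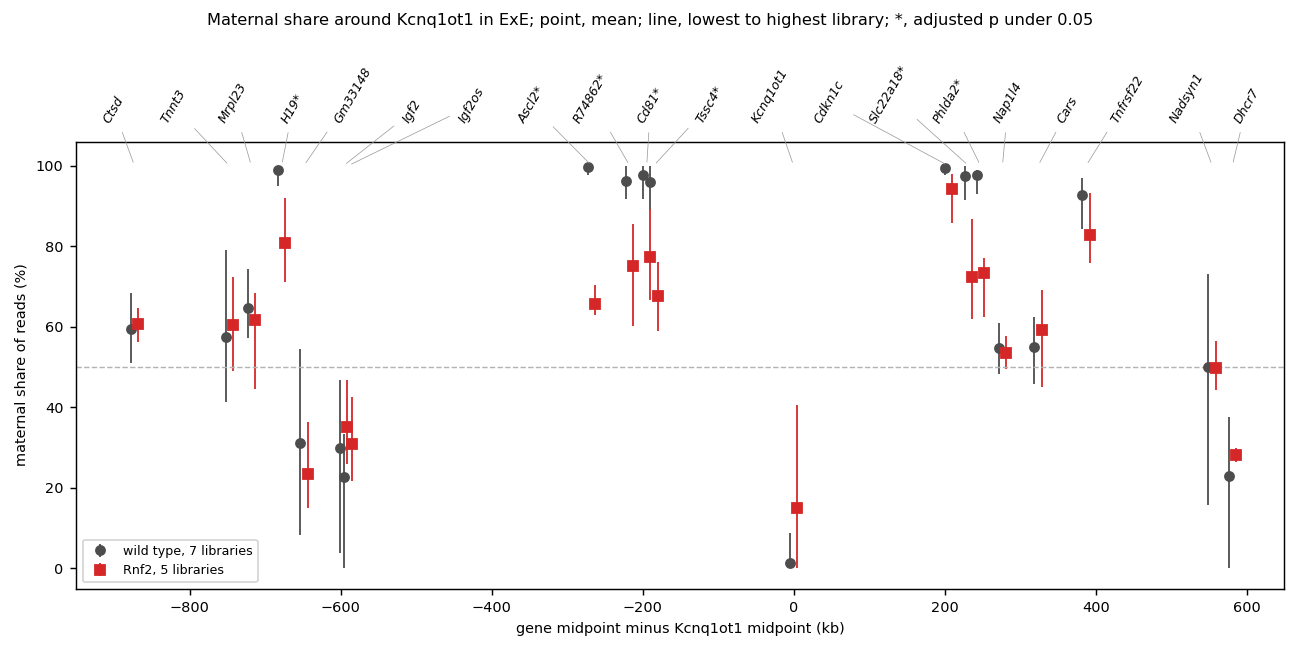
Maternal share of reads, in percent, of the 20 tested genes within 1 Mb of Kcnq1ot1, against the distance of the gene's midpoint from that of Kcnq1ot1 in kb, for wild type (7 libraries) and Rnf2 (5). Points are means, lines run from the lowest to the highest library, and a star marks an adjusted p under 0.05. The 7 starred genes are maternal in wild type and lie between H19 at -678 kb and Phlda2 at 248 kb.

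Of 53 genes of the table within 1 Mb of Kcnq1ot1, 20 were tested and 7 changed, these 6 and H19, beside 0.911% of all tested genes. Cdkn1c, an inhibitor of cyclin-dependent kinases (chr7:143458339-143461073), was 97.7 to 100% maternal in wild type and 97.0, 98.0, 96.0, 85.8 and 94.0% in Rnf2 (adjusted p = 0.129, with log2 -3.62 ± 1.03 SE). It passed without Rnf2 embryo 4 (log2 -3.97, adjusted p = 0.0341), after thinning to the shallowest library (adjusted p = 0.0482) and with sex as a covariate (0.00730). With embryo number as a block it also passed (0.0180), but these numbers do not pair Rnf2 with wild-type embryos. The total level of Cdkn1c rose in Rnf2 from 40.2 ± 12.6 to 149 ± 40.1 CPM (SD, adjusted p = 2.11e-05), of which 141 CPM were maternal and 7.75 CPM paternal. Kcnq1ot1 itself (chr7:143213111-143296547), read from the paternal allele, was 0 to 8.82% maternal in wild type and 21.4, 13.3, 0, 40.5 and 0% in Rnf2. The zeros in embryos 5 and 7 rest on 12 and 104 reads, which allow up to 25.0 and 2.88%, and the change did not pass (adjusted p = 0.247) except without embryo 7 (log2 3.86). Tnfrsf22 was at 92.7 and 82.8% (adjusted p = 0.153). The neighbours Nap1l4 and Cars were near equal in both groups, at 54.9 and 53.5% and at 54.9 and 59.2% maternal. Igf2, expressed from the father in other tissues, was at 30.0 and 35.2% with 8 to 159 reads in a library, and it did not pass either (adjusted p = 0.876).

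Outside the Kcnq1ot1 domain 2 further maternal genes changed. H19, the noncoding RNA beside Igf2 (chr7:142575530-142578146), was 95.0 to 100% maternal in wild type and 92.0, 75.0, 82.9, 71.0 and 83.0% in Rnf2 (log2 -4.55 ± 0.74 SE, adjusted p = 0.00278). Its paternal reads went from 18.5 ± 31.7 to 464 ± 276 CPM (SD). Grb10, an adaptor of insulin signalling (chr11:11930499-12037422), went from 98.4 to 89.5% (adjusted p = 0.0103), a smaller shift with 38 to 270 reads per library in Rnf2. G9a-Glp ExE was at 99.3% for Grb10, which differed from Rnf2 (adjusted p = 0.000829), whereas H19 did not pass against G9a-Glp (log2 -1.10, adjusted p = 0.751).

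Among paternally expressed genes the best supported change was small in percent. Sfmbt2, a Polycomb-group gene of trophoblast (chr2:10370437-10595253), had maternal reads in 1 wild-type library (0.199%) and 7.00, 8.00, 3.42, 4.01 and 1.99% maternal reads in Rnf2 (log2 7.53 ± 0.67 SE, adjusted p = 2.82e-06). The counts behind it were 1004 to 1853 reads per wild-type and 819 to 4456 per Rnf2 library. Sfmbt2 was at 31.3% maternal in Eed and 41.0% in G9a-Glp, and Rnf2 differed from each (adjusted p = 7.57e-08 and 3.96e-08). Smoc1, a secreted matrix protein, was at 0 to 5.26% in wild type and 27.2, 38.8, 16.7, 4.58 and 14.4% in Rnf2 (adjusted p = 0.0281), and it did not pass without Rnf2 embryo 2 or 4 or without wild-type embryo 1, 2, 4 or 6 (log2 3.09, 2.74, 3.23, 3.09, 3.30 and 2.99). Platr20, a noncoding RNA, was at 5.07 and 26.4% on average (adjusted p = 0.0422). It did not pass without Rnf2 embryo 2, 4 or 6 (log2 2.75, 2.92 and 3.25) or without wild-type embryo 1, 2, 3, 6 or 8 (3.12, 2.93, 3.06, 2.81 and 2.98). Slc38a4, Jade1 and Gab1, which like Sfmbt2 and Smoc1 were listed as imprinted through a maternal histone mark, did not pass. They went from 0.565 to 4.40%, from 5.44 to 9.79% and from 5.91 to 12.6% maternal (adjusted p = 0.243, 0.272 and 0.0893). Gab1 passed without Rnf2 embryo 7 or wild-type embryo 7 (log2 1.37 and 1.33) and Slc38a4 without Rnf2 embryo 7 (log2 3.25). In Eed ExE Jade1 and Gab1 were at 31.2 and 31.8%, above Rnf2 (adjusted p = 0.00864 and 0.0492), and in G9a-Glp at 46.6 and 56.1%.

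Sgce and Peg10, neighbours on chr6 that are read from the father, differed between the Rnf2 embryos. Sgce was 15.1, 16.3, 0, 20.8 and 0% maternal in embryos 2, 4, 5, 6 and 7 and at most 2.63% in wild type (adjusted p = 0.0374). Peg10 was at 19.2, 22.0, 0, 25.2 and 0%, with no maternal read in wild type (adjusted p = 0.135). The zeros in embryo 7 rest on 140 reads for Sgce and 232 for Peg10, which allow up to 2.14 and 1.29%, and those in embryo 5 on 31 and 33 reads, which allow up to 9.68 and 9.09%. Sgce did not pass without Rnf2 embryo 2, 4 or 6 (log2 3.38, 3.34 and 3.25) or without any 1 of the 7 wild-type embryos (3.27 to 3.85), and Peg10 passed without Rnf2 embryo 7 (log2 7.31). Peg3, a zinc finger gene (chr7:6703892-6730441), was at 0 to 9.82% in wild type and at 15.3, 13, 38.3, 48.7 and 1.46% in Rnf2 (adjusted p = 0.0422). It did not pass without Rnf2 embryo 2, 4, 5 or 6 (log2 4.02, 4.13, 3.62 and 3.26) or without any wild-type embryo but embryo 3 (3.45 to 4.02).

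The 5 Rnf2 embryos were uneven across imprinted genes. Over 25 tested listed genes whose silent allele gave at most 10% of reads in wild type on average, the median share of the silent allele was 10.7, 16.3, 7.90, 25.2 and 5.85% in embryos 2, 4, 5, 6 and 7. Embryo 6 had the highest share of the 5 in 15 of the 25 genes and embryo 5 in 0. Shares above the highest wild-type library were found in 19, 21, 16, 20 and 12 of the genes. The genes were chosen for a low share in these wild-type libraries, and most Rnf2 libraries were deeper. No background was computed, so these counts only compare the Rnf2 embryos with each other. In Meg3, Rian and Mirg, neighbouring noncoding RNAs of chr12 read from the mother, embryo 6 was at 61.8, 61.6 and 46.2% maternal. The other 4 embryos were at 96.7 to 100, 83.3 to 100 and 90.0 to 100%, and wild type was at 100% in all 3. The wild-type values rest on 22 to 83, 4 to 32 and 4 to 17 reads per library. The lowest of these counts allow up to 13.6, 75.0 and 75.0% paternal reads. None of the 3 passed the test (adjusted p = 0.527, 0.514 and 0.604). Ascl2 and Phlda2, in contrast, were below wild type in all 5 embryos.

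**Figure D4:**
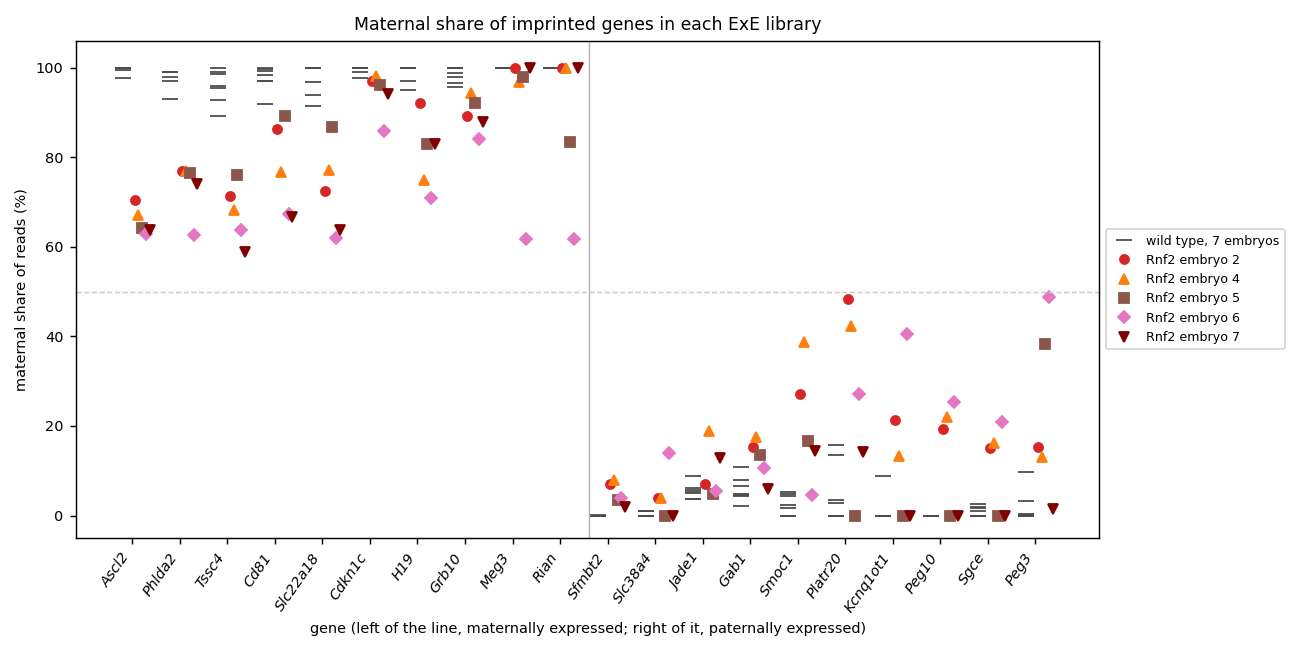
Maternal share of reads, in percent, in each ExE library (7 wild type and 5 Rnf2) of 20 imprinted genes, 10 expressed from the mother and 10 from the father. Points are embryos. Rnf2 embryo 6 stands apart in Meg3 at 61.8%, and in Ascl2 the 5 Rnf2 embryos lie between 62.9 and 70.4%.

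In total level, 41 listed imprinted genes were tested, 9 rose and 1 fell, beside 12.3% of all genes higher and 9.55% lower. Besides Cdkn1c and Ascl2, Gnas rose from 23.4 to 68.7 CPM, Peg10 from 17.3 to 43.6, Tssc4 from 31.9 to 61.5, Osbpl5 from 4.41 to 17.2, Airn from 2.38 to 5.76, Slc38a4 from 454 to 650 and H13 from 22.9 to 40.2 CPM. Ddc, an amino acid decarboxylase, fell from 11.8 to 4.61 CPM. For Tssc4 the paternal reads went from 1.34 ± 1.35 to 20.6 ± 8.58 CPM and the maternal reads from 30.5 ± 4.44 to 40.8 ± 8.06 CPM (SD). For Grb10 the maternal reads went from 28.2 ± 4.81 to 19.2 ± 5.72 CPM. For Peg10 the paternal reads went from 17.3 ± 3.20 to 36.1 ± 11.7 CPM.

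The other 70 changes of the parental share lay outside the imprinted list, and 52 of them had a maternal share between 20 and 80% in wild type. In 39 the mean share moved by at least 10 percentage points. T, the brachyury gene of the primitive streak, went from 77.0 ± 8.83 to 44.7 ± 4.50% maternal (SD, log2 -2.11 ± 0.34 SE, adjusted p = 0.00278). Its maternal reads were 24.2 and 5.64 CPM in wild type and Rnf2 and its paternal reads 7.00 and 7.09 CPM. T was 73.8% maternal in the reciprocal cross too. The total level of T fell from 31.2 to 12.7 CPM (adjusted p = 0.0279), which did not pass without Rnf2 embryo 2, 4 or 5 or wild-type embryo 8 (log2 -1.31, -1.09, -1.26 and -1.05). Plxdc2 (5.12 and 35.8%), Acot2 (25.2 and 63.1%), Epb41l3 (15.0 and 50.9%) and Adcy3 (26.5 and 57.8%) shifted toward the mother. In reciprocal wild-type ExE these 4 were at 90.9, 77.2, 72.3 and 69.6% maternal, so the CAST allele gave most reads in both crosses. Gusb (84.4 and 64.3%) and Nrde2 (79.3 and 62.7%) shifted toward the father and were at 13.4 and 28.1% maternal in the reciprocal cross. Slc38a1 went from 26.1 to 50.4% and was at 51.3, 45.7 and 41.1% in Eed, G9a-Glp and Dnmt1. The calls of Acot2 (without Rnf2 embryo 2 or 4, log2 2.17 and 2.43), Epb41l3 (without Rnf2 embryo 7, 2.10), Gusb (without Rnf2 embryo 2 or wild-type embryo 7, -1.5 and -1.38) and Nrde2 (without Rnf2 embryo 4 or wild-type embryo 8, -1.11 and -1.12) were lost. Adcy3 was lost without Rnf2 embryo 2, 6 or 7 (1.88, 1.87 and 1.94) and without each wild-type embryo but embryo 6 (1.92 to 2.12).

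Set against epiblast, the change of the parental share differed in 21 of 8023 genes (0.262%), 11 with a more maternal change in ExE (0.137%) and 10 with a more paternal one (0.125%). In Rnf2 epiblast Ascl2 was 49.0% maternal against 68.6% in wild-type epiblast, where the gene is not strictly maternal, and the difference from ExE passed (log2 -6.55, adjusted p = 2.31e-05). Tssc4 was at 63.5 and 64.3% in wild-type and Rnf2 epiblast and Cd81 at 67.6 and 57.7% (difference from ExE -3.54 and -3.08, adjusted p = 0.000250 and 0.00148). Phlda2 was at 93.3 and 91.9% in epiblast, so its share moved in ExE and hardly in epiblast (-3.87, adjusted p = 0.00273). Sfmbt2 went from 51.6 to 16.2% in epiblast, the opposite direction (10.26, adjusted p = 2.31e-05). Compared with Eed ExE, 26 of 10293 genes differed (0.253%), 16 more maternal in Rnf2 (0.155%) and 10 more paternal (0.0972%). Compared with G9a-Glp ExE 65 of 9183 differed (0.708%), 30 more maternal (0.327%) and 35 more paternal (0.381%). Ascl2, Phlda2, Tssc4 and Cd81 were at 70.4, 75.4, 74.5 and 74.1% maternal in Eed, close to Rnf2, with adjusted p of 0.936, 0.960, 0.822 and 0.969. In G9a-Glp the same 4 were at 93.3, 90.4, 83.7 and 93.2%, each nearer to wild type than in Rnf2 (adjusted p = 1.62e-08, 0.0498, 0.0295 and 0.0349). Slc22a18 and R74862 did not pass against G9a-Glp (log2 -0.84 and -1.84, adjusted p = 0.720 and 0.162). Neither did Sgce, Peg3 and Platr20 (log2 1.07, 0.57 and -1.21, adjusted p = 0.778, 0.906 and 0.384), nor T, Plxdc2, Acot2, Epb41l3, Gusb, Nrde2 and Slc38a1 (adjusted p from 0.130 to 0.967).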

How the data were processed

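Total read counts per gene, an allelic ratio and an allelic score for each library were taken from the table the authors deposited. The submitters' processing notes name STAR 2.5.0, HTSeq and mm10, and polymorphisms between BDF1 and CAST separate the parents. The deposited ratio and score, a signed value of allelic imbalance, gave back maternal and paternal reads. There were 715649 scored values. Among those with a score below its limit, whole reads matched 99.986% within 0.001. In 3519 values, which hold 7.73% of reads, the score had reached its limit and the share comes from the rounded ratio, so that deep genes such as H19 carry whole percents.

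From the counts, CPM over library totals was computed, and changes were tested with edgeR 4.0.16 (quasi-likelihood, TMM, its filter on low counts) in R 4.3.3, with Benjamini-Hochberg adjustment over all autosomal genes tested. Parental shares used the same test on maternal and paternal reads with a term per library. DESeq2 1.42.0 and limma 3.58.1 served as alternatives, and the fits were tested on simulated data. The limits given for counts of 0 cover counting error only. SE values are the size of the log2 change divided by the square root of the F of the edgeR test. They take in the spread between embryos only through that F. Where a group has few or no reads, as for Hoxb7, Hoxd13, paternal Ascl2 or maternal Sfmbt2 in wild type, they are approximate and can be too small. Embryo numbers name different zygotes across genotypes and do not pair Rnf2 with wild-type samples, and no 2 libraries were identical. By their titles some embryos gave both an ExE and an epiblast library, and the comparisons with epiblast did not use this pairing. The genes named are the 12 largest changes in each direction with no overlap and a mean of at least 5 CPM in the higher group, up to 4 members of each list with the lowest adjusted p, changed imprinted genes and tested genes within 1 Mb of Kcnq1ot1. List members named beyond that were chosen after their values were seen. Alternatives were other scalings, filters, tools and covariates, thinning to equal depth, other control groups and leaving out each library. The members and gene lists were chosen with earlier results of these data known. A few list members are not reported here.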

Additional observations from a re-analysis of the deposited data

Results flagged for a closer look

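In 27 of 194 groups of values one embryo stood far from the others of its group, by a cut-off made for normally distributed values. Levels are skewed and shares are bounded, so the number that chance alone would give is not known. A group with a value above 0 in only 1 library, such as Hoxd13 or the maternal share of Sfmbt2 in wild type, is flagged by construction. Wild-type embryo 8 accounted for 9 of the 27. It had the highest level of Gm39853 (45.0 CPM), Mirt1 (13.6), Gmeb2 (214), Kdr (14.3), Sycp1 (27.9), T (60.4), Foxl2os (1.79) and Hoxd13 (0.715), and the lowest maternal share of Ascl2 (97.6%). Among the other wild-type embryos the distant values were Mesp2 in embryo 3 (1.72 CPM), Sfrp1 and Dppa4 in embryo 6 (3.67 and 349 CPM), and the maternal shares of Cd81 and Sfmbt2 in embryo 2 (91.8 and 0.199%), Peg3 in embryo 3 (9.82%), Phlda2 in embryo 6 (93.0%) and Kcnq1ot1 in embryo 7 (8.82%). Among the Rnf2 embryos they were Ring1 in embryo 6 (2.07 CPM), Wnt4, Dppa4 and Pth1r in embryo 4 (18.2, 90.1 and 14.3 CPM) and Wt1 in embryo 2 (7.64 CPM). The distant maternal shares in Rnf2 were Phlda2, Slc38a4 and Meg3 in embryo 6 (62.5, 14.0 and 61.8%), Plxdc2 in embryo 5 (14.3%) and Slc38a1 in embryo 7 (42.3%).

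The change of level in Rnf2 differed between ExE and epiblast, by the test of the difference itself, for the following genes, given as the log2 change in ExE minus that in epiblast. More positive in ExE were Mixl1 (6.89), Bahcc1 (5.91), Gjc1 (5.73), Hhex (5.54), Gsc (5.47), Mesp2 (4.94), Ccnd1 (4.01), Eva1a (3.39), Sfrp1 (3.19), Tesc (2.96), Crabp1 (2.27), Krt7 (2.21) and Tdrkh (1.75). More negative by over 3 were Gm39853 (-7.23), Pglyrp1 (-7.18), 2210019I11Rik (-7.15), Phf11d (-6.85), Dppa2 (-6.77), Dppa4 (-6.38), Bmp4 (-5.25), Synpo2l (-4.90), Cldn9 (-4.71), Mirt1 (-4.04), Sycp1 (-3.31) and Gm41958 (-3.0). The smaller differences were Hspb1 (-2.73), Il17rd (-2.65), Slc2a3 (-2.26), Cbx8 (-2.01), Gm30984 (-1.99), Fkbp6 (-1.87), Etv5 (-1.51), Ddah1 (-1.5), Ccng1 (-1.42), Utf1 (-1.36) and Fzd7 (-1.29). Without Rnf2 ExE embryo 5 or 6 the difference of 2210019I11Rik did not pass.

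The change of the maternal-to-paternal ratio also differed between the tissues, by the same kind of test, for Sfmbt2 (10.26), Ascl2 (-6.55), Phlda2 (-3.87), Tssc4 (-3.54), Cd81 (-3.08), R74862 (-2.92), T (-1.73) and Slc38a1 (1.48).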

How the results depend on the processing

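Most results kept their direction and side of the threshold. The count of 2011 changed genes was 2469 with DESeq2, 1897 with library totals and 1585 after thinning to the shallowest library. With the replicate number as a block it was 563 (399 higher and 164 lower), but the numbers name different zygotes and are shared labels only, so this pairing has no basis in the design. The deviations of same-numbered embryos had correlations of -0.34 to 0.037. The block also took the allelic count from 82 to 22 (7 toward the mother and 15 toward the father), and 24 of 66 genes named for level and 14 of 29 named for parental share lost their call. With limma on log ratios the allelic count was 125 in the comparison with wild type, 6 in that with epiblast and 75 in that with Eed. When any 1 library was left out the allelic count was 50 to 87, and with any 1 Rnf2 library left out the Eed comparison gave 940 to 1211 genes for level and 17 to 25 for parental share. Genes changed toward the mother numbered 40, against 64 with limma and 23, 21, 25 and 24 without Rnf2 embryo 2, 4 or 6 or wild-type embryo 1. Genes higher than wild type numbered 1132, against 742 with at least 50 reads in 5 libraries. The number of genes called lower was 582 without Rnf2 embryo 2 and 560 without embryo 6. Genes higher than in Eed numbered 503, but 312, 300 and 328 without Rnf2 embryo 5, 6 or 7, and those lower numbered 985, but 640 without embryo 6. Genes with a more positive change in ExE than in epiblast numbered 222, and 352 with DESeq2. Of the 12 imprinted genes with a changed share, limma called 5. Developmental factors called higher numbered 7, and 38 with no filter on low counts and 21 with all ExE groups in 1 fit, which called 2424 and 2407 genes in all. In comparisons added after seeing the data, Rnf2 ExE was set against other knockouts, with 1347 genes changed (654 higher). Against Dnmt1 and G9a-Glp ExE the log2 change reversed for Cdkn1a (-1.26), Btg2 (-0.24), Sesn2 (-1.12), Ccng1 (-0.35), Hmox1 (-0.13), Utf1 (-0.028) and Lamb1 (0.92). Against G9a-Glp ExE the allelic change reversed for Sfmbt2 (-3.74), Smoc1 (-2.25), Platr20 (-1.21), Slc38a4 (-3.44), Jade1 (-2.93) and Gab1 (-3.16). The cause of these differences was not tested. Depth limits the parental shares of low genes and of Rnf2 embryo 5, with 1847681 reads.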
